A study of Mus musculus with 4 samples.

Results

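Amino acid supply in regulatory T cells (Treg) was examined through 33 genes, chosen by symbol as amino acid transporters, enzymes of serine, one-carbon, asparagine, alanine and proline metabolism, and genes of the stress response led by the transcription factor ATF4. All 33 were found among the 28334 rows of the deposited table, and 29 of them passed the filter on low values that left 13685 genes for testing. Treg are the CD4+ T cells that keep immune responses in check, and Foxp3 is their defining transcription factor. Cells were sorted as CD4+ YFP+ from the spleen and the peripheral lymph nodes of C57BL/6 mice that had received no treatment, and their poly-A RNA was sequenced. All 4 libraries came from mice whose genotype is written Foxp3 YFP-Cre/0, meaning 1 copy of an allele that puts YFP and Cre recombinase under the control of Foxp3, and the titles carry the tag hemizygous. The 2 libraries labelled WT (WT 1 and WT 2) had Pdpk1 +/+, and the 2 labelled KO (KO 1 and KO 2) had Pdpk1 FL/FL, in which Cre can remove the floxed part of the gene in cells that express Foxp3. Pdpk1 encodes PDK1, a kinase that activates AKT and other AGC kinases, and the series title concerns the need of Treg for it. Neither the age of the mice nor the floxed exons nor any pooling of animals is stated in the labels.

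When amino acids run short, or when protein folding fails in the endoplasmic reticulum (ER), kinases phosphorylate the initiation factor eIF2. General translation then falls while that of Atf4 messenger RNA rises, so ATF4 activity is set largely by translation and not by the level of its transcript. The complex mTORC1, which acts downstream of PI3K and AKT, also raises ATF4 translation in growing cells. With C/EBP partners, ATF4 binds C/EBP-ATF elements and induces genes that import amino acids, make serine, asparagine and one-carbon units, and, in stress, limit growth.

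The promoter windows of the members differ in whether they hold the letters of such an element. Those that do are printed so that the expression values can be read beside them. Windows of 300 bases, from 250 before to 50 after the start of a transcript, came from RefSeq (GRCm38.p6, the assembly of mm10). They were present for 29 of the 33 members, and the other members were not searched. An element outside its window, or with letters other than those searched, would be missed. The letters TGATGNAA, searched on both strands, stood in the windows of 8 members. These were 8 of the members' 34 windows, against 3.97% of all 32851 windows in the table. Of the windows of tested members alone 4 of 29 held the letters, against 2.30% of the 12370 windows of tested genes. The other windows with the letters belonged to members below the filter. Because the members include genes known as ATF4 targets, these shares describe the list and were not tested. The whole windows of Asns and Trib3, whose transcripts were among the most different between the genotypes, read 5′ to 3′ on the strand of the gene with the element in capitals:
Asns (chr6:7693160-7693459, minus strand): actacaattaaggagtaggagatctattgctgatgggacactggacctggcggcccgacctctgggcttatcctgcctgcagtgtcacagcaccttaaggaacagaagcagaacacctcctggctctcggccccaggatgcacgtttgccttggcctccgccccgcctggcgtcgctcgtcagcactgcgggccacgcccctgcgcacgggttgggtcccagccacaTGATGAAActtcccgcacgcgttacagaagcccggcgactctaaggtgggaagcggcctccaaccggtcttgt
Trib3 (chr2:152344011-152344310, minus strand): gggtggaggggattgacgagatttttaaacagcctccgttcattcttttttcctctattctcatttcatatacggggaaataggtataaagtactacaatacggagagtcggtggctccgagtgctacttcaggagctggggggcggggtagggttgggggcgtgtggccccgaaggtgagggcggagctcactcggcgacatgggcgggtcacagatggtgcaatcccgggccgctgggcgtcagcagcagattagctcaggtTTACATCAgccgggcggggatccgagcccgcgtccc

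The other 6 members with the element are shown with 20 bases on each side, on the strand of the gene and again with the element in capitals. Slc7a11 held a pair of elements on opposite strands. Slc1a4 and Pycr1 were tested, and Chac1, Nupr1, Slc7a11 and Vldlr were the 4 members below the filter. Of the tested holders, Asns and Trib3 were called higher in KO by the limma fit below, Pycr1 was called lower and Slc1a4 was not called. A link between the element and the differences was not tested. With the fixed letters TTGCATCA, searched on both strands and found in 0.895% of all windows, 6 members were left, since Asns and Trib3 carry other letters at the open position. The E-box CACGTG, which reads the same on both strands, stood in the windows of 2 members, Aldh18a1 and Nupr1, and in 7.15% of all windows.
Slc1a4 (chr11:20332690-20332737, minus strand): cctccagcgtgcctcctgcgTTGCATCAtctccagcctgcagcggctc
Pycr1 (chr11:120643824-120643871, minus strand): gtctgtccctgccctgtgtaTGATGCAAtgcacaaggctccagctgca
Chac1 (chr2:119351029-119351076, plus strand): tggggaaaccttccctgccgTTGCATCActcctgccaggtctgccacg
Nupr1 (chr7:126625553-126625600, minus strand): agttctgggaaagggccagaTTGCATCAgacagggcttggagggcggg
Slc7a11 (chr3:50443633-50443699, minus strand): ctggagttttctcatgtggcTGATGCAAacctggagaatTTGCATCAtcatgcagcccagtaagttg
Vldlr (chr19:27216800-27216847, plus strand): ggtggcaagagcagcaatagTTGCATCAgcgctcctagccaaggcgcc

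Values are the authors' log2 normalised counts, and library depth is unknown because read totals were not given. Pdpk1 did not separate the groups, at 11.71 and 11.76 in WT and 11.78 and 11.73 in KO, so the libraries are named by their labels. The table has 1 value per gene, so the loss of some exons cannot be checked in it. The 7 Treg markers Foxp3, Il2ra, Ctla4, Ikzf2, Cd4, Cd3e and Cd3g were all tested, and Foxp3 was between 11.38 and 11.47 in the 4 libraries. The proliferation markers are given with the one-carbon enzymes below, and Il2ra and Ctla4 were called higher and Ikzf2 lower. Markers of other cells were present, none of them at a linear value of 0. The summed linear values of 6 B cell markers were 354 to 394 in WT and 316 to 322 in KO, and those of 6 monocyte and macrophage markers 208 to 297 and 218 to 234. Of the single markers of other cells, Zbtb46 was called higher, and Cd79a, Xcr1, Klrb1c, Col1a1 and Col1a2 lower, and their part in the members' values was not tested. Libraries of the same group deviated in mirror image between the genotypes. Over the tested genes, the difference of WT 1 from WT 2 had a correlation of -0.907 with that of KO 1 from KO 2. Whether an effect of the replicate number was removed before deposit is not stated in the labels. If it was, every SD, SE, interval and adjusted p printed here from the fit on genotype alone would be too small, so these are to be read as the spread of the deposited values only. In bulk RNA, a smaller share of cells that express a gene and less RNA per cell cannot be told apart.

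By limma at an adjusted p under 0.05, 25 of the 29 tested members were called, 21 of them higher in KO and 4 lower. Over all tested genes 47.4% were called, 27.1% higher and 20.3% lower. The median difference of the members, KO minus WT, was 0.175 on the log2 scale, against 0.015 over all tested genes. The range ran from -0.385 (Sesn2) to 0.985 (Gpt2), and 14 members differed by at least 0.25, as did 28.2% of all tested genes. Both KO libraries lay above both WT libraries in 24 members and below them in 4, while over all tested genes this held for 39.9% and 33.1%, together 73%. Pycr1 passed the filter only through its WT libraries, so its lower value in KO is in part fixed by that filter. With 1 library left out, no gene kept a call. Without WT 1, WT 2, KO 1 or KO 2, limma called 0 of the 29 members and 0 of all genes at the adjusted threshold, with lowest adjusted p among the members of 0.0961, 0.0918, 0.0825 and 0.0817. In those fits, with 1 residual degree of freedom, 21, 23, 19 and 20 members and 5225 to 5669 of all tested genes had an unadjusted p under 0.05. The members' median stayed between 0.155 and 0.20 in these fits, and no called member changed its sign. A term for the replicate number left 0 calls at 0.05, and at an adjusted p under 0.1 it gave 6 members higher and 1 lower, against 9.96% and 6.14% of all tested genes. When differences were corrected by loess for transcript length and mean value (the length correction), 13 members were called higher and 4 lower, against 19.3% and 20.8% of all genes tested in that fit.

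**Figure D1:**
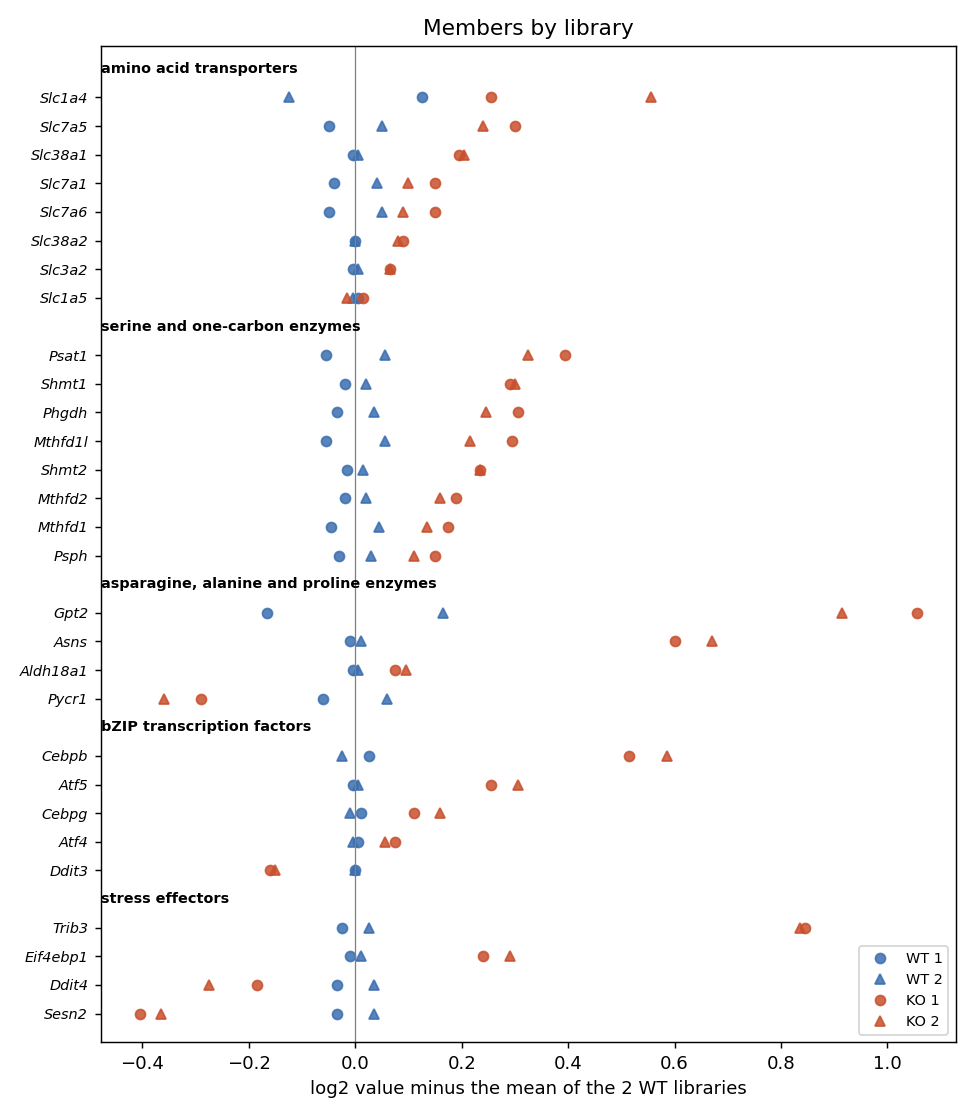
Each point is 1 library and shows the log2 value of a tested member minus the mean of its 2 WT libraries, with WT in blue, KO in orange, circles for replicate 1 and triangles for replicate 2. In the serine and one-carbon class all KO points lie to the right of all WT points, while in the stress class Trib3 and Eif4ebp1 lie to the right and Ddit4 and Sesn2 to the left.

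In serine and one-carbon metabolism all 8 enzymes were called higher in KO, by 0.13 to 0.36 on the log2 scale with a median of 0.245. The pathway makes serine from a glycolytic intermediate and passes its carbon through folate to purines, thymidylate and methionine. Phgdh, which opens serine synthesis, was at 10.16 and 10.23 in WT 1 and WT 2 and at 10.50 and 10.44 in KO 1 and KO 2. It was 1.21-fold higher (log2 difference 0.275, SE 0.04, limma adjusted p = 0.0127). Psat1, the aminotransferase of the next step, was at 10.25 and 10.36 in WT and 10.70 and 10.63 in KO, the largest difference of the class at 1.28-fold (0.36, SE 0.05, limma adjusted p = 0.0136). Neither gene's groups overlapped, which also held for 73% of all tested genes, and the WT libraries of Psat1 differed by 0.11. Psph, the phosphatase that completes serine synthesis, was at 8.71 and 8.77 in WT and 8.89 and 8.85 in KO, the smallest difference of the class (0.13, SE 0.03, limma adjusted p = 0.0478). Its span overlaps 452 bases of Cct6a on the opposite strand, which differed by 0.175, and the labels do not say whether counting used strand.

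The one-carbon enzymes of mitochondria and cytosol were both higher. Shmt1 and Shmt2 split serine into glycine and a one-carbon unit, Shmt1 in the cytosol and Shmt2 in mitochondria. Shmt1 was at 8.97 and 9.01 in WT and at 9.28 and 9.29 in KO. It was 1.23-fold higher (0.295, SE 0.02, limma adjusted p = 0.0065). The annotated span of Shmt1 overlaps 184 bases of Smcr8 on the opposite strand, which was lower in KO (-0.18, limma adjusted p = 0.0424). Shmt2 was at 10.51 and 10.54 in WT and 10.76 in both KO libraries, 1.18-fold higher (0.235, SE 0.02). The 95% intervals of these 2 differences, 0.227 to 0.363 for Shmt1 and 0.186 to 0.284 for Shmt2, overlap. Among the mitochondrial enzymes that carry the unit onward, Mthfd2 differed by 0.175 (SE 0.02). Mthfd1l, which releases it as formate, was at 10.45 and 10.56 in WT and 10.80 and 10.72 in KO. It was 1.19-fold higher (0.255, SE 0.05, limma adjusted p = 0.0292). Mthfd1, the cytosolic enzyme that takes up the formate, was 1.11-fold higher (0.155, SE 0.04, limma adjusted p = 0.0457). The calls of Psph and Mthfd1 were lost with quantile normalization (adjusted p = 0.0755 and 0.0870) and with median centring (0.0871 and 0.0753). Both were also lost without the filter (0.0869 and 0.105) and without the trend in the prior variance (0.0602 and 0.0682), that of Psph with a robust prior (0.0512) and that of Mthfd1l without the filter (0.0752). With the length correction 4 of the 8 enzymes were called, and Psph, Mthfd1, Mthfd1l and Mthfd2 were not (adjusted p = 0.167, 0.109, 0.0507 and 0.0509).

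Genes of proliferating cells moved in the same libraries. All 12 proliferation markers, among them Mki67, Ccna2 and Mcm5, were called higher in KO, with a median log2 difference of 0.54. Their summed linear values were 20379 and 21554 in WT and 30336 and 28700 in KO. The part of a difference in cycling cells in the one-carbon values was not tested.

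Of the 4 enzymes for asparagine, alanine and proline, 3 were called higher and Pycr1 lower. Gpt2, the mitochondrial alanine aminotransferase (chr8:85492576-85527560, plus strand, GRCm38), was at 6.72 and 7.05 in WT and 7.94 and 7.80 in KO. It was 1.98-fold higher (log2 difference 0.985, SE 0.14, limma adjusted p = 0.0137), the largest difference among the members. Its 95% interval of 0.58 to 1.39 was wide, with WT libraries 0.33 apart. Asns, asparagine synthetase, whose printed promoter holds TGATGAAA with its first base at -23 from the start of transcription, was at 7.30 and 7.32 in WT and 7.91 and 7.98 in KO. It was 1.55-fold higher (0.635, SE 0.04, limma adjusted p = 0.00586). Between the nearest libraries of the groups lay 0.59, against up to 0.07 within a group. A term for the replicate number gave Asns a limma adjusted p of 0.0964. Aldh18a1, which makes the precursor of proline and ornithine, differed by only 0.085 (SE 0.01, limma adjusted p = 0.0195). That call was lost with quantile normalization (adjusted p = 0.0925), median centring (0.0514) and the length correction (0.365). Pycr1, the mitochondrial reductase that finishes proline synthesis, also holds the element in its window. It was near the filter at 3.42 and 3.54 in WT and 3.19 and 3.12 in KO (-0.325, SE 0.07, limma adjusted p = 0.0346). Without the filter its adjusted p was 0.0698.

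Among the amino acid transporters, 8 of 9 were tested, 4 were called higher and 0 lower, and the median difference was 0.12. Slc7a5 (LAT1), which brings leucine and other large neutral amino acids into activated T cells, was at 10.88 and 10.98 in WT and 11.23 and 11.17 in KO. It was 1.21-fold higher (0.27, SE 0.05, limma adjusted p = 0.0190), with an adjusted p of 0.0513 when low genes were kept in the test. The span of Slc7a5 is overlapped on the opposite strand by Gm20388, which was not tested. Slc3a2 (CD98), the heavy chain that carries LAT1 to the surface, was at 10.88 and 10.89 in WT and 10.95 in both KO libraries. That difference of 0.065 (SE 0.01) was called without further scaling, but was 0.03 after quantile normalization, 0.035 after median centring and -0.01 after the length correction, none of them called. The level of Slc7a5 per length relative to Slc3a2 was 0.80 and 0.85 in WT and 0.97 and 0.93 in KO.

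The neutral amino acid transporters Slc38a1 and Slc38a2, which take up glutamine, were 1.15-fold and 1.06-fold higher (0.20 and 0.085, SE 0.01 each). The call of Slc38a2 was lost with quantile normalization (adjusted p = 0.140) and the length correction (0.167). Slc1a5 (ASCT2), the other glutamine carrier of T cells, did not separate the groups, at 11.40 and 11.39 in WT and 11.41 and 11.38 in KO. Its log2 difference was 0.00 with a 95% interval of -0.05 to 0.05, and only the length correction gave a call (-0.09, adjusted p = 0.0285). Slc1a4 (ASCT1), a carrier of serine and alanine and a holder of the element, was at 6.21 and 5.96 in WT and 6.34 and 6.64 in KO. Its difference of 0.405 did not pass (SE 0.15, limma adjusted p = 0.108), and its libraries differed by up to 0.30 within a group. The arginine and lysine carrier Slc7a1 (0.125, limma adjusted p = 0.0658) and the exchanger Slc7a6 (0.12, limma adjusted p = 0.109) did not pass either. Slc7a11, the cystine importer, was below the filter at 3.29 and 3.18 in WT and 2.96 and 3.01 in KO.

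Atf4 itself (chr15:80255184-80257541, plus strand, GRCm38) hardly differed. It was at 10.92 and 10.91 in WT and 10.99 and 10.97 in KO, a log2 difference of 0.065 (SE 0.01, limma adjusted p = 0.0358). The sign of that small difference depended on the scaling, at 0.02 after quantile normalization (adjusted p = 0.398), 0.035 after median centring (0.137) and -0.04 after the length correction (0.0966). Its call was also lost without the filter (limma adjusted p = 0.0508). Of the other basic leucine zipper (bZIP) factors of the response, 3 were called higher and Ddit3 lower. Cebpb, a C/EBP partner of ATF4 (chr2:167688915-167690418, plus strand), was at 7.53 and 7.48 in WT and 8.02 and 8.09 in KO. It was 1.46-fold higher (0.55, SE 0.04, limma adjusted p = 0.00653). The span of Cebpb overlaps 908 bases of Tmem189 on the opposite strand, which did not separate the groups (0.01, limma adjusted p = 0.688). Atf5, a relative of Atf4 that is itself translated under stress, was at 7.05 and 7.06 in WT and 7.31 and 7.36 in KO, 1.21-fold higher (0.28, SE 0.04, limma adjusted p = 0.0140). Its annotated span overlaps 571 bases of Nup62 on the opposite strand, which was higher by a similar 0.25 (limma adjusted p = 0.0105). Cebpg, another dimer partner of ATF4, differed by 0.135 (SE 0.02).

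Ddit3, which encodes CHOP, the factor that joins ATF4 in prolonged stress, went the other way. It was at 8.54 in both WT libraries and at 8.38 and 8.39 in KO, 1.11-fold lower (-0.155, SE 0.02, limma adjusted p = 0.0148). Its annotated span overlaps 68 bases of Mars on the opposite strand, which was higher in KO (0.18).

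The stress effectors split evenly, with 2 called higher, 2 lower and 3 below the filter. Trib3, a pseudokinase induced by ATF4 and CHOP, was at 7.28 and 7.33 in WT and 8.15 and 8.14 in KO. It was 1.79-fold higher (0.84, SE 0.04, limma adjusted p = 0.0050). The nearest libraries of its groups lay 0.81 apart, against up to 0.05 within a group. With a term for the replicate number its limma adjusted p was 0.0964. Its printed window holds TTACATCA just after the start of transcription. Eif4ebp1 encodes 4E-BP1, the translation repressor that mTORC1 phosphorylates, and was at 7.40 and 7.42 in WT and 7.65 and 7.70 in KO. It was 1.20-fold higher (0.265, SE 0.04, limma adjusted p = 0.0137).

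The lower pair, Sesn2 and Ddit4, encode restraints of mTORC1. Sesn2, a leucine sensor that holds mTORC1 off when leucine is scarce (chr4:132492032-132510501, minus strand, GRCm38), was at 9.04 and 9.11 in WT and 8.67 and 8.71 in KO. It was 1.31-fold lower (-0.385, SE 0.04, limma adjusted p = 0.0076). Ddit4 (REDD1), which restrains mTORC1 through the TSC complex, was at 10.45 and 10.52 in WT and 10.30 and 10.21 in KO, 1.17-fold lower (-0.23, SE 0.04, limma adjusted p = 0.0256). Its adjusted p was 0.0662 when low genes were kept in the test. Chac1, an enzyme that degrades glutathione and a common mark of ATF4 activity, was below the filter at 2.50 and 2.58 in WT and 2.52 and 2.41 in KO. Nupr1, a stress regulator of chromatin, was at 2.15 and 1.88 in WT and 1.74 and 1.90 in KO, and Vldlr, a lipoprotein receptor, was between 0.62 and 0.78 in all 4 libraries. For these 3 genes, and for Slc7a11, no difference was tested.

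**Figure D2:**
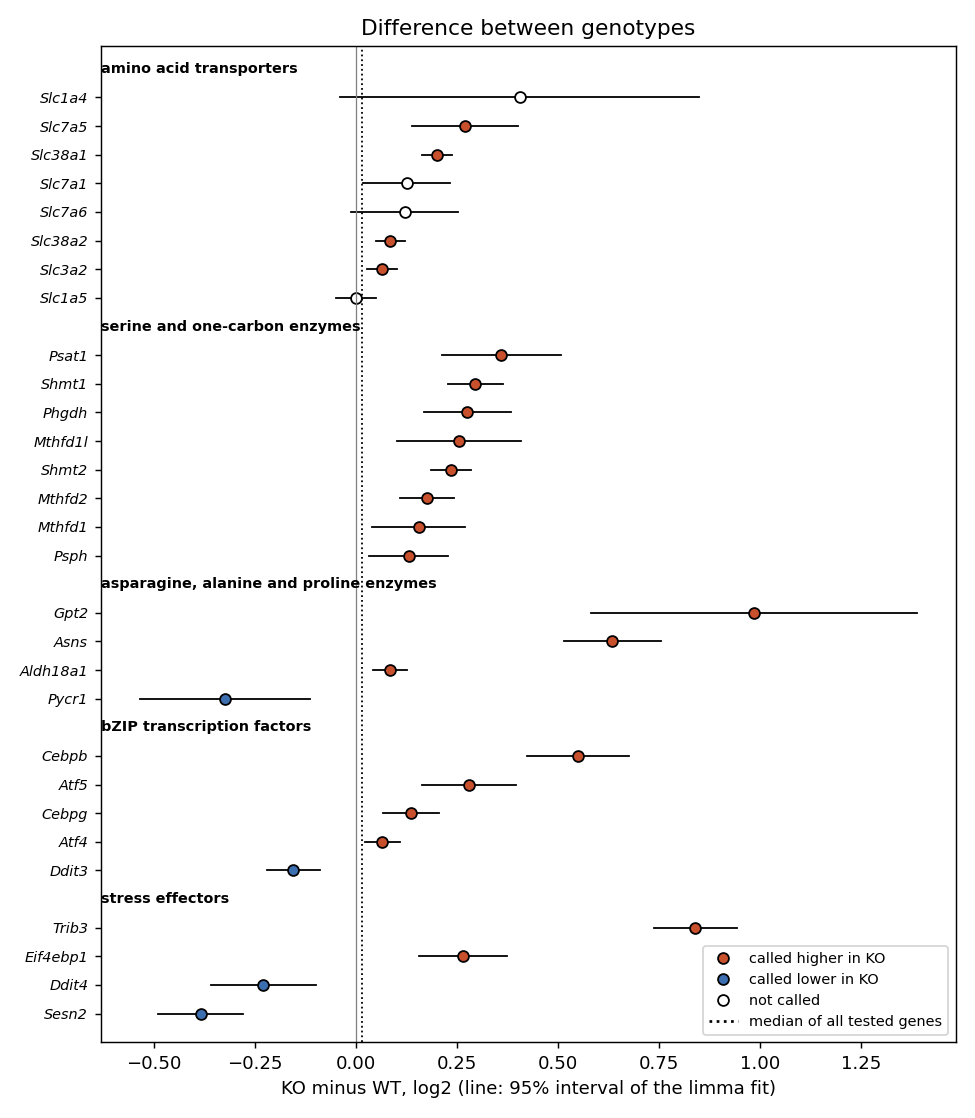
Points give the KO minus WT difference of each tested member on the log2 scale, lines its 95% interval from limma, and the dotted line the median of all tested genes at 0.015. Gpt2 at 0.985, Trib3 at 0.84, Asns at 0.635 and Cebpb at 0.55 stand to the right of the other called members, and Sesn2 at -0.385 is the lowest.

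Levels between members were compared only per length, as linear values per kilobase of the longest annotated transcript. By that measure Atf4 was the most abundant member, at 1119 ± 5.49 in WT (SD, n = 2), followed by Slc1a5 at 974 ± 4.78 and Slc38a2 at 861. Aldh18a1 (722) and Shmt2 (644) led the enzymes. The ATF4 targets with the largest differences were low, at 78.7 ± 0.77 for Asns, 78.1 ± 1.91 for Trib3 and 32.7 ± 5.26 for Gpt2 in WT (SD, n = 2 each), and those of Asns and Trib3 overlap within their SDs. Mitochondrial Shmt2 stood above cytosolic Shmt1 in every library, by a ratio of 3.63 and 3.61 in WT and 3.48 and 3.46 in KO. Cebpg relative to Cebpb was 2.54 and 2.59 in WT and 1.94 and 1.91 in KO. Pycr1, Chac1, Nupr1, Slc7a11 and Vldlr were the lowest, at most 5.35 per kilobase in any library. All but Pycr1 were below the filter, and the transform is not stated, so their values may not measure a level.

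**Figure D3:**
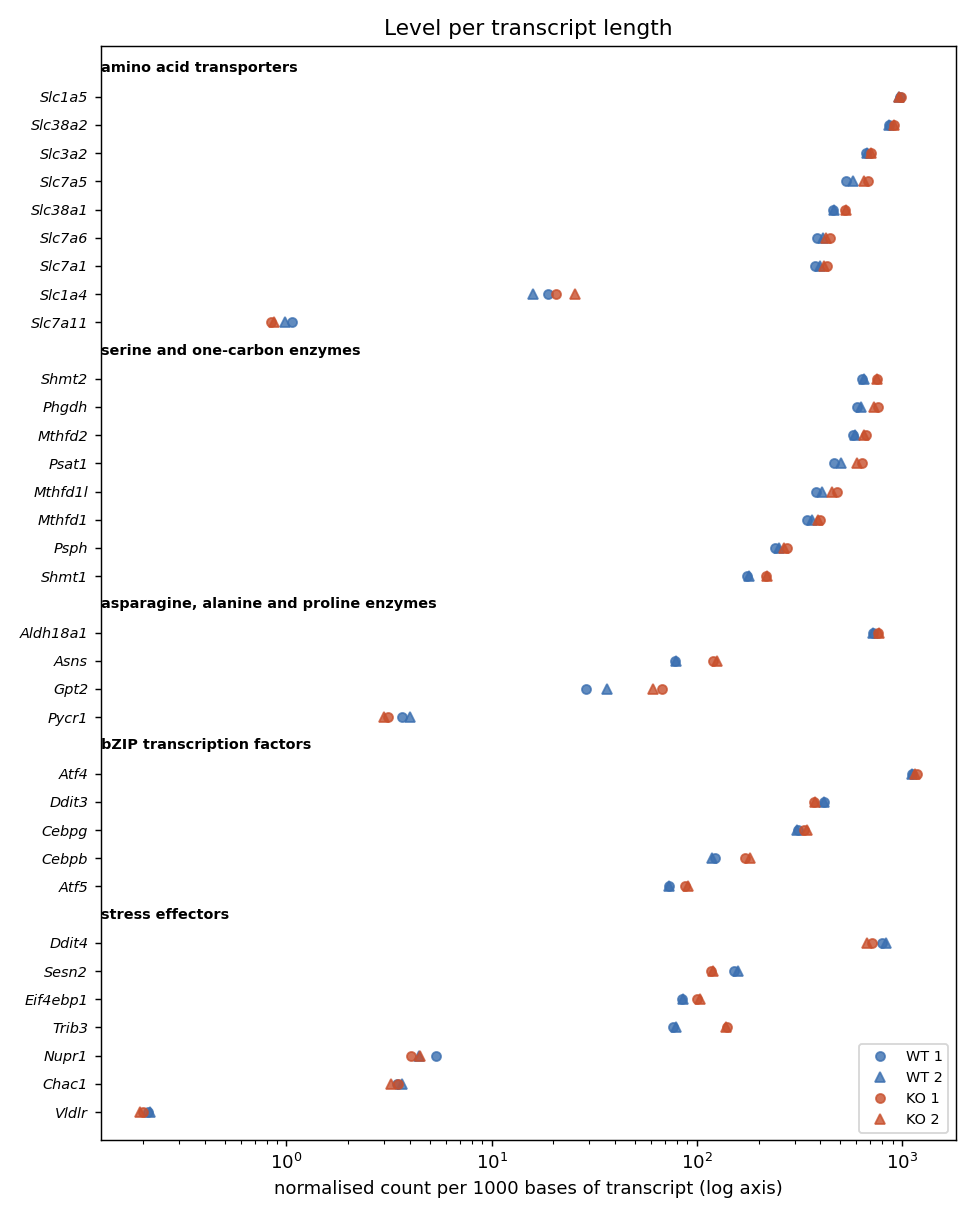
Each point is 1 library and shows a member's linear normalised value per kilobase of its longest transcript on a log axis, with the members of each class ordered by their mean in WT. Atf4 lies farthest to the right at 1119 in WT, and Vldlr, which was below the filter, farthest to the left at 0.213.

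The rest of the pathway was described with lists that do not hold the members. Upstream of ATF4, 15 of 16 genes for eIF2 kinases, eIF2, its exchange factor eIF2B and its phosphatase were tested, of which 8 were called higher and 1 lower, with a median difference of 0.115. Eif2s2 (0.185) and Eif2b5 (0.19), subunits of eIF2 and eIF2B, were higher. The gene called lower was Eif2ak4, which encodes GCN2, the kinase that senses uncharged tRNA, at 9.20 and 9.21 in WT and 8.98 in both KO libraries (-0.225, SE 0.02, limma adjusted p = 0.0066).

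Of 14 other amino acid transporters tested, 2 were called higher and 6 lower, with a median of -0.075, and the 3 with the smallest p were all lower. These were Slc38a7 (-0.245), Slc38a9 (-0.195), an arginine sensor of lysosomes, and Ctns (-0.225), the lysosomal cystine exporter. The extremes, chosen after their values were seen, were Slc7a10 (-1.705, SE 0.30) and the leucine carrier Slc43a1 (0.885, SE 0.16).

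Of 23 other genes of folate, one-carbon and methionine metabolism, 10 were called higher and 2 lower, with a median of 0.05. Slc46a1, 1 of the lower pair, passed the filter only through its WT libraries. Ahcy, which clears the product of methylation reactions, was 1.41-fold higher (0.50, SE 0.03) and the purine enzyme Atic 1.13-fold (0.175, SE 0.01). Of 18 other amino acid enzymes, 7 were called higher and 3 lower (median 0.105), and the 3 with the smallest p were aspartate aminotransferase Got1 (0.34), glutamine synthetase Glul (0.22) and glutaminase Gls2 (0.535). Among 21 other tested targets of ATF4 and CHOP, 12 were called higher and 1 lower (median 0.10), which was Jdp2 (-0.665). The highest was Stc2 (1.055), with an adjusted p just inside the threshold, and both were named after their values were seen. The 3 with the smallest p were the aminoacyl-tRNA synthetases Wars (0.52), Mars (0.18) and Sars (0.16). Of 18 ER chaperones and sensors, 12 were called higher and 2 lower (median 0.15), with Pdia4, Canx and Hsp90b1 higher by 0.19, 0.185 and 0.185. No list was tested as a set, and its counts are to be read against the 27.1% and 20.3% of all tested genes.

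**Figure D4:**
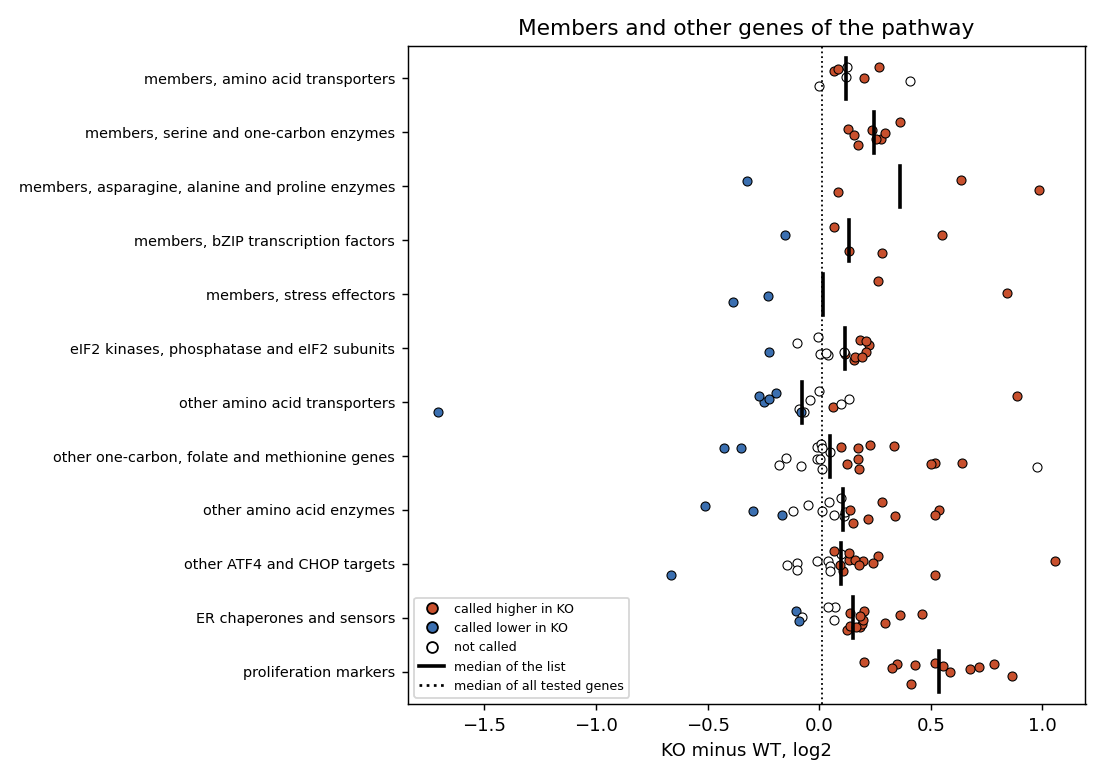
Each point is the KO minus WT log2 difference of a tested gene, filled orange where called higher in KO, blue where called lower and white where not called, with a bar at the median of each list and a dotted line at the median of all tested genes. The serine and one-carbon class and the proliferation markers hold called higher genes alone, while the other amino acid transporters have a median of -0.075.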

How the data were processed

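The authors deposited log2 values of normalised counts, by the name of the file. The submitters' processing notes list STAR, DESeq2 and mm10 without versions. Transform, annotation, counting tool and strand use are not stated. Values ran from -2.1 to 13.94, so no count model was used, and depth gives no stated precision. The labels do not say whether libraries are from separate animals, and p-values measure the spread between these libraries, which may be technical.

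A gene was tested if its linear value (2 to the power of the log2 value) reached 10 in 2 or more libraries. Genotype effects came from limma 3.58.1 (R 4.3.3, trended prior variance, no other term, 2 residual degrees of freedom), two-sided, with Benjamini-Hochberg adjustment over 13685 genes. Transcript lengths and positions came from GENCODE M21 (GRCm38) and promoters from RefSeq, matched by symbol in Python 3.11.15. Lists are described by counts and medians.

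Values in every library are given for Atf4, called members with a log2 difference of at least 0.25 and the largest difference of each class in each direction, and up to 3 called genes with the smallest p are named for each pathway list, except 1 gene that is not reported here. Members and lists were chosen with earlier results of these data known. Alternatives were a replicate term, dropping the filter or raising it to 100, adding 10 before the logarithm, median centring, quantile normalization, other variance priors, array weights, leaving out each library, and a loess correction (span 0.4). The crossed replicate term and the threshold of 0.1 were added after seeing the data.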

Additional observations from a re-analysis of the deposited data

How the results depend on the processing

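The labels do not say that replicate numbers pair the libraries, and the deposited values cannot settle it: same-numbered libraries of the 2 genotypes deviated in opposite directions (correlation -0.907), and in 48.8% of tested genes the sums WT 1 + KO 1 and WT 2 + KO 2 differed by at most 0.02. Had a replicate effect been removed before deposit, the fit with the block, with 1 residual degree of freedom, would be the fitting one. With the replicate number as a block, every count of calls, for all genes, the members and each class, was 0 (smallest adjusted p = 0.0964, with 4881 genes and 20 members at an unadjusted p under 0.05). With that block at an adjusted p under 0.1, 1363 genes were higher and 840 lower, of the members 6 and 1, and of the classes 1 transporter, 2 serine and one-carbon enzymes, 1 asparagine, alanine and proline enzyme and 1 bZIP factor higher with 0 lower, and 1 stress effector in each direction. With the numbers crossed, so that WT 1 was set with KO 2, 5282 of all genes were higher and 4446 lower. Of the members 23 were higher and 4 lower, with 7 transporters higher. Given the mirror image, a crossed term takes up most of the spread within groups, so these counts cannot serve as a check. Leaving out 1 library gave counts from 0 to 0 throughout, while medians ranged from 0.155 to 0.20 for the members and from 0.085 to 0.1675 for transporters. In these 4 fits no called member changed its sign. With a minimum of 100, 3215 of 9867 tested genes were higher in KO and 1788 lower, and of the members 21 and 3. The asparagine class then had 0 lower and a median of 0.635, since Pycr1 was not tested. Without a filter, 4610 of 28334 genes were higher and 3083 lower, and of the members 16 and 2. In that fit 5 serine and one-carbon enzymes were higher, 0 of the asparagine class lower and 1 stress effector lower. Quantile normalization gave 3029 of 13685 genes higher and 3067 lower, and of the members 15 and 3. Its medians were 0.13 for the members, 0.0775 for transporters, 0.204 for serine and one-carbon enzymes and 0.0906 for bZIP factors. Of the classes, 2 transporters were then higher and 0 of the asparagine class lower. Median centring gave medians of 0.145 for the members, 0.0925 for transporters and 0.105 for bZIP factors. The loess correction left 13 members higher with a median of 0.122, 2 transporters higher and 1 lower, 4 serine and one-carbon enzymes higher (median 0.167), 0 of the asparagine class lower and a stress median of -0.0315, and it turned the sign of Slc3a2 (-0.0114) and Atf4 (-0.0429). Without the trend in the prior variance the calls of Slc3a2, Psph, Mthfd1, Aldh18a1 and Atf4 were lost (adjusted p = 0.0746, 0.0602, 0.0682, 0.0518 and 0.0876). The cause of these shifts was not tested. Calls of Asns, Gpt2, Trib3, Cebpb and Sesn2 were kept under every filter, pseudocount, scaling and variance setting, but not under the block or with a library left out. The same held for Phgdh, Psat1, Shmt1, Shmt2, Slc38a1, Atf5, Ddit3, Cebpg and Eif4ebp1. With unknown depth, no limit can be set for the 4 untested members.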
